A study of Macaca mulatta with 6 samples.

Results

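Glycolysis genes, together with the genes that move lactate across the cell membrane and admit pyruvate to the mitochondrion, were examined in induced pluripotent stem cell (iPSC) lines of the rhesus monkey. The list held 33 gene symbols. Rows were matched on the symbol given in the deposited tables, and where a symbol had several rows the one with the highest mean was used. In this way 30 of the 33 were found among 30246 gene rows. PKM and ENO1 were not matched to any row and are not analysed here. LDHB had no symbol in the tables, but a table of gene names gave it to 1 expressed row (ENSMMUG00000002679), which is described beside the list and is not in its counts.

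RNA was sequenced from 6 samples of such lines, 2 male naive, 2 female naive and 2 male primed, with 1 library each. The source cells of the lines are not given in the labels, nor whether the 2 samples of a group are separate lines or cultures of 1 line, so "lines" below stands for these samples. The series compared the naive state, which resembles the early epiblast, with the primed state, which resembles the epiblast after implantation. The naive medium was KnockOut DMEM with 15% serum replacement, N2 supplement, LIF (10 ng/ml), bFGF (4 ng/ml) and 4 kinase inhibitors: CHIR99021 (3 µM, against GSK3), PD0325901 (0.5 µM, against MEK), SB203580 (10 µM, against p38) and SP600125 (10 µM, against JNK). The primed medium was D/F12 with 20% serum replacement and bFGF. The basal media differ, so medium composition and cell state cannot be told apart, and the labels do not give oxygen, glucose or the time of collection. Feeder cells were removed before RNA extraction. No label ties a line to a donor, and female primed lines were not analysed here.

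Glycolysis turns glucose into pyruvate in the cytosol. Glucose enters through SLC2A transporters, hexokinase traps it, and phosphofructokinase sets the pace of the pathway under the control of the bifunctional PFKFB enzymes. Pyruvate is then either reduced to lactate by lactate dehydrogenase and exported by SLC16A carriers, or oxidised by the pyruvate dehydrogenase complex, which the PDK kinases inhibit. Many of these genes are induced by the hypoxia-inducible factor HIF-1, whose subunit HIF1A is controlled mainly through the stability of its protein. Primed pluripotent cells are known for a strong reliance on glycolysis.

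Levels are given as FPKM, the number of sequenced fragments scaled to transcript length and library size, so that different genes can be compared per length. Depth was estimated from the authors' error bounds as effective fragments, at 1478692 and 1754857 in the male naive libraries and between 7607125 and 10013491 in the other 4. The male naive libraries stood apart in a further way. Over 1567 rows with at least 200 effective fragments in every library, their median absolute log2 ratio was 0.0752, where counting error alone gives 0.0709. The same ratio was 0.168 between female naive lines (0.0307 from counting error) and 0.214 between primed lines (0.0321). Their differences still exceeded counting error (chi-square test, p = 2.6e-53), which does not tell separate lines from repeat preparations of 1 culture. The pair was used as 2 samples, as labelled, and the calls against primed lines are also given with the pair averaged as 1 sample. Called rows then fall from 1548 to 223 between naive and primed lines. Of 12 pluripotency markers, 11 were tested, and their summed level was 1358 to 2263 FPKM in naive and 581 to 661 in primed libraries. Among these 7 rose and 0 fell in naive lines, where 6.72% of all tested rows rose and 4.59% fell. POU5F1 was at 135 and 109 FPKM in primed and 536 to 1160 in naive libraries. TDGF1 was at 0 and 0.818 FPKM in primed and 11.9 to 111 in naive libraries. NANOG, SOX2, LIN28B and SALL4 were not called. SOX2 was at 141 and 124 FPKM in primed and 85.3 to 122 in naive libraries. NANOG was at 0.917 and 0 FPKM in primed, 0 and 1.58 in male naive and 5.02 and 29.5 in female naive libraries. LIN28A was listed at 0 in all 6 libraries. Of 7 tested neural markers 0 rose and 3 fell (CRABP1, MAP2 and NCAM1). The summed level of the 9 found, untested NES included, was 676 and 891 FPKM in primed and 201 to 373 in naive libraries. Most of the excess was CRABP1, and without CRABP1 the sums overlapped (269 and 257 against 190 to 312 FPKM). NES, at 165 and 170 FPKM in primed and 166 to 263 in naive libraries, was the largest part of these sums. For 5 of the 7 tested markers all naive libraries lay below both primed ones, against 15.9% of all tested rows.

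GAPDH, the glyceraldehyde phosphate dehydrogenase, was at 2312 and 2364 FPKM in the male naive lines, 2308 and 2641 in the female naive lines and 2626 and 2427 in primed lines, and ranked 19 among 13685 tested rows by mean FPKM. Its row spans 4 other annotated rows and the gene has many processed copies in primate genomes, so its level is uncertain. LDHB ranked 161, the neuronal-type glucose transporter SLC2A3 194, aldolase ALDOA 196, phosphoglycerate mutase PGAM1 208 and phosphoglycerate kinase PGK1 236. At the other end were the kinases PDK4 (0.0193 to 1.47 FPKM) and PDK2 (2.51 to 4.3 FPKM) and the bifunctional enzyme PFKFB2 (1.66 to 2.82 FPKM). TPI1, the triose phosphate isomerase, was listed at 0 in every library. Its row lies on an unplaced contig, and every cell uses this enzyme, so the listing says nothing of its level. The plot of members by library shows these levels in pathway order.

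**Figure D1:**
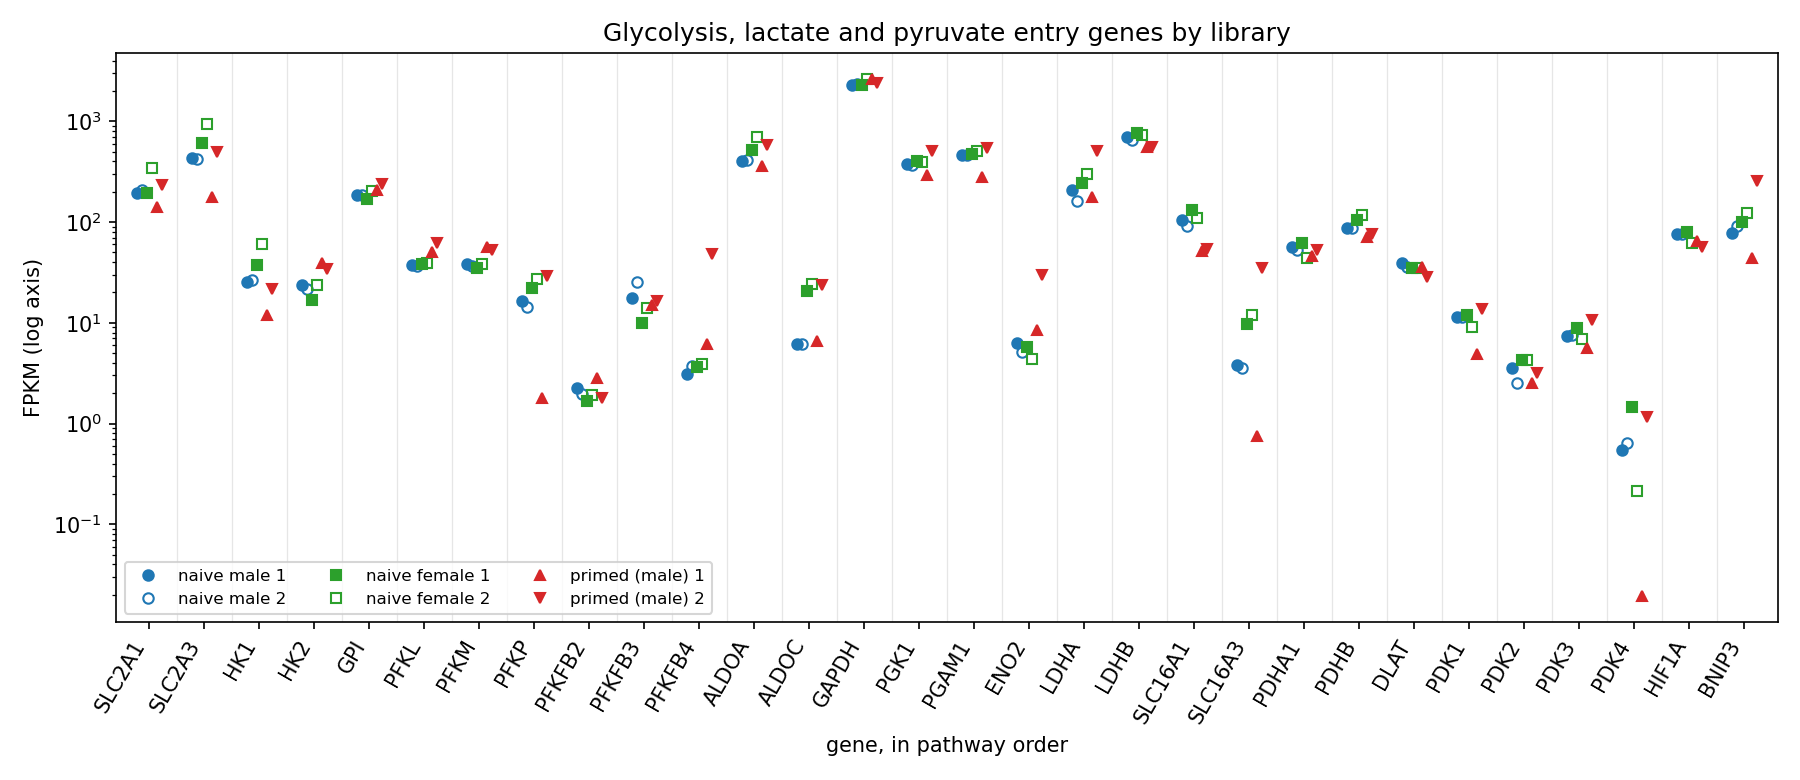
FPKM (log axis) of 29 tested members and LDHB in pathway order, 1 point per library: male naive (blue circles), female naive (green squares) and primed (red triangles). GAPDH is the highest of these genes in all 6 libraries, and primed 1 and primed 2 lie far apart for PFKP, PFKFB4, SLC16A3 and BNIP3.

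Naive lines had more of the lactate carrier SLC16A1 and less of the entry enzymes HK2, PFKL and PFKM than primed lines. SLC16A1 (ENSMMUG00000006171, chromosome 1, 115892462 to 115934954), the monocarboxylate transporter MCT1, was at 104 and 91.3 FPKM in the male naive lines, 132 and 110 in the female naive lines and 52.1 and 54 in the primed lines. All naive libraries were above both primed ones, and the primed pair was almost equal. On the log2(FPKM + 1) scale, used for all differences below, it rose by 1.02 (SE 0.12, adjusted p = 0.0103 by limma with Benjamini-Hochberg adjustment over all tested rows).

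HK2 (ENSMMUG00000011845, chromosome 13, 75080994 to 75137866), the inducible hexokinase, was at 23.5 and 21.8 FPKM in the male naive lines, 16.8 and 23.9 in the female naive lines and 39.6 and 34.3 in primed lines. No naive library reached the lower primed value, and HK2 fell by 0.76 (SE 0.17, adjusted p = 0.0432). PFKM (ENSMMUG00000002045, chromosome 11, 45182009 to 45225692), the muscle-type phosphofructokinase, was at 38.6 and 37 FPKM in the male naive lines, 35.2 and 38.7 in the female naive lines and 57.1 and 53 in primed lines. It fell by 0.55 (SE 0.11, adjusted p = 0.034). PFKL (ENSMMUG00000004173, chromosome 3, 2386393 to 2397393), the liver-type enzyme, was at 37.4 and 36.3, 38.5 and 39.1, and 50.5 and 61.9 FPKM in the same order and fell by 0.55 (SE 0.13, adjusted p = 0.0431). For both phosphofructokinases the 4 naive values were nearly the same and the groups did not overlap.

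These 4 were the called members: 1 of 29 tested members was higher and 3 were lower in naive lines, where 11.3% of all tested rows were called in either direction. By direction, 3.45% were higher against 6.72% of all rows and 10.3% lower against 4.59%. Of the called rows 59.4% were higher in naive lines, and 44.1% with upper-quartile scaling, under which the same 4 members were called. The median difference of the list was 0.01, and that of all tested rows 0.03. The share of members called was thus near the background. With the male naive pair averaged as 1 sample only SLC16A1 was called (adjusted p = 0.0494), with HK2 at 0.119, PFKL at 0.129 and PFKM at 0.114. The 3 falls kept their direction but were also lost when any 1 library was left out. SLC16A1 was lost without male naive 1 and without primed 1. Such a fit leaves 1 sample in a group, and fewer rows were called over all tested rows too. These losses are thus not particular to the members.

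The plot of naive minus primed estimates shows that the widest intervals belong to members with unequal primed lines. HK1, the housekeeping hexokinase, was not called (log2 difference 1.08, SE 0.28, adjusted p = 0.0594), although it was at 25.5 and 26.7 FPKM in the male naive lines, 37.9 and 60.1 in the female naive lines and 12 and 21.8 in primed lines, with every naive library above both primed ones. PDHB, the beta subunit of pyruvate dehydrogenase, was likewise at 87.2 and 88.2, 104 and 117, and 71.3 and 76.7 FPKM (0.41, SE 0.11, adjusted p = 0.0595). LDHB, the heart-type lactate dehydrogenase, was at 697 and 655 FPKM in the male naive lines, 773 and 736 in the female naive lines and 558 and 561 in the primed lines (0.35, SE 0.1, adjusted p = 0.0671). In all, 3 members (10.3%) lay above both primed libraries in all naive ones, where 18.9% of tested rows did, and 6 (20.7%, against 15.9%) lay below. These 6 were HK2, PFKL, PFKM, the isomerase GPI, the neuronal enolase ENO2 and PFKFB4.

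**Figure D2:**
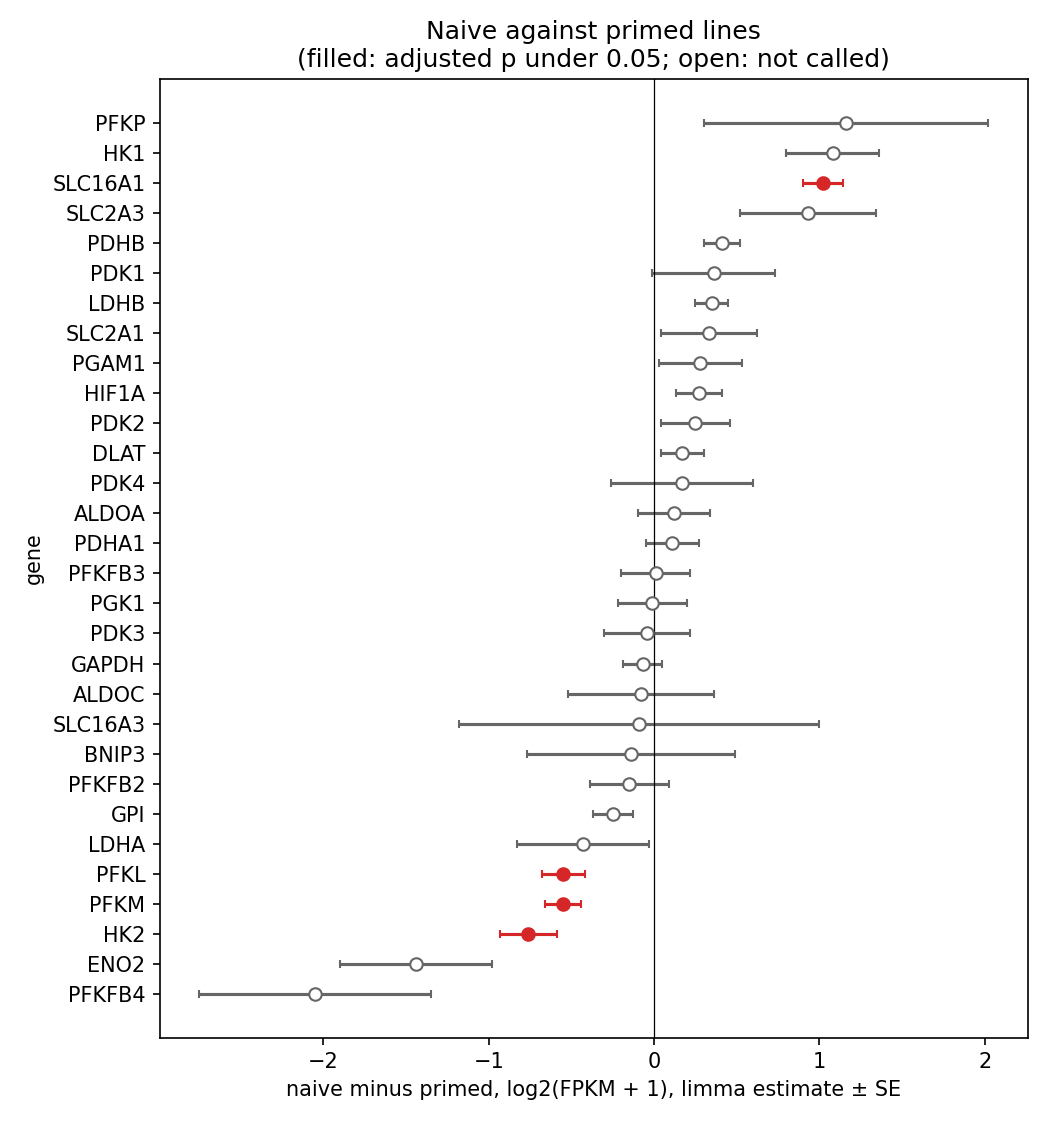
Difference between naive and primed lines on the log2(FPKM + 1) scale for 29 tested members and LDHB, as the limma estimate with its SE. Filled red points are called at an adjusted p under 0.05 (SLC16A1, PFKL, PFKM and HK2), and the intervals of SLC16A3, PFKP and PFKFB4 are the widest.

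Much of the list differed widely between the primed lines. The median absolute log2 difference within a pair was 0.73 for members between the primed lines, 0.27 between the female and 0.07 between the male naive lines, and 0.29, 0.23 and 0.18 over all tested rows. BNIP3 (ENSMMUG00000022445, chromosome 9, 131635210 to 131650415), a mitochondrial mitophagy receptor and HIF-1 target, was at 44.3 FPKM in primed 1 and 255 in primed 2. Its naive values, 77.3 and 90.5 in male and 101 and 123 in female lines, all lay between these. SLC16A3 (ENSMMUG00000010121, chromosome 16, 77716555 to 77740043), the lactate exporter MCT4, was at 0.748 FPKM in primed 1 and 35 in primed 2, on 19 and 769 effective fragments, a ratio of 46.8. Naive libraries again lay between, at 3.8 and 3.56 (male, on 16 and 12 effective fragments) and 9.71 and 12 (female). The SLC16A3 row overlaps that of CSNK1D, which was at 71.5 and 61.6 FPKM in the primed pair.

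PFKP (ENSMMUG00000004935, chromosome 9, 3335752 to 3406280), the platelet-type phosphofructokinase, was at 1.78 FPKM in primed 1 and 29.2 in primed 2, a ratio of 16.4, with naive values of 14.4 to 27. LDHA, the muscle-type lactate dehydrogenase, was at 176 FPKM in primed 1 and 513 in primed 2, and at 163 to 297 in naive lines. PDK1, the HIF-induced inhibitor of pyruvate dehydrogenase, was at 4.87 and 13.7 FPKM in the primed pair and at 9.02 to 12 in naive lines. In each of these genes primed 2 was the highest of the 6 libraries. Between naive and primed lines none of these 5 was called: BNIP3 differed by -0.14 (SE 0.63), SLC16A3 by -0.09 (SE 1.09), PFKP by 1.16 (SE 0.86), LDHA by -0.43 (SE 0.4) and PDK1 by 0.36 (SE 0.37).

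PFKFB4 and ENO2 showed a second arrangement, with every naive library below both primed ones. PFKFB4 (ENSMMUG00000000591, chromosome 2, 87920872 to 87956001), which makes or removes the activator fructose 2,6-bisphosphate, was at 6.22 FPKM in primed 1 and 48.5 in primed 2, and at 3.12 to 3.86 in naive lines, on 10 effective fragments in each male naive library. ENO2 was at 8.44 and 30.1 FPKM in the primed pair and 4.38 to 6.3 in naive lines. Neither difference was called (PFKFB4 -2.05, SE 0.7, adjusted p = 0.11 and ENO2 -1.44, SE 0.46, adjusted p = 0.0954).

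Over the list, 23 of 29 tested members were higher in primed 2 than in primed 1, where 50.9% of all tested rows were. At least 2-fold higher were 10 members (34.5%, against 9.72% of all rows) and at least 2-fold lower were 0 (against 4.06%). The 10 were SLC2A3, PFKP, ALDOC, ENO2, LDHA, SLC16A3, PDK1, PDK4, PFKFB4 and BNIP3, of which PDK4 rested on 1 effective fragment in primed 1. The median log2 difference between the primed libraries was 0.73 in the list and 0.01 over all rows. Primed 2 was the highest library for 12 members (41.4%, against 16.3% of rows) and primed 1 the lowest for 14 (48.3%, against 22.8%). For 7 members (24.1%, against 4.22%) all 4 naive libraries lay between the primed pair: PFKP, PGK1, PGAM1, SLC16A3, PDK1, PDK3 and BNIP3. These counts describe 2 libraries with no replicate of either line. The 6 members that were lower in primed 2 included HIF1A itself, at 65.6 FPKM in primed 1, 56.2 in primed 2 and 62.4 to 79.3 in naive lines (naive minus primed 0.27, SE 0.14, adjusted p = 0.251 by limma).

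**Figure D3:**
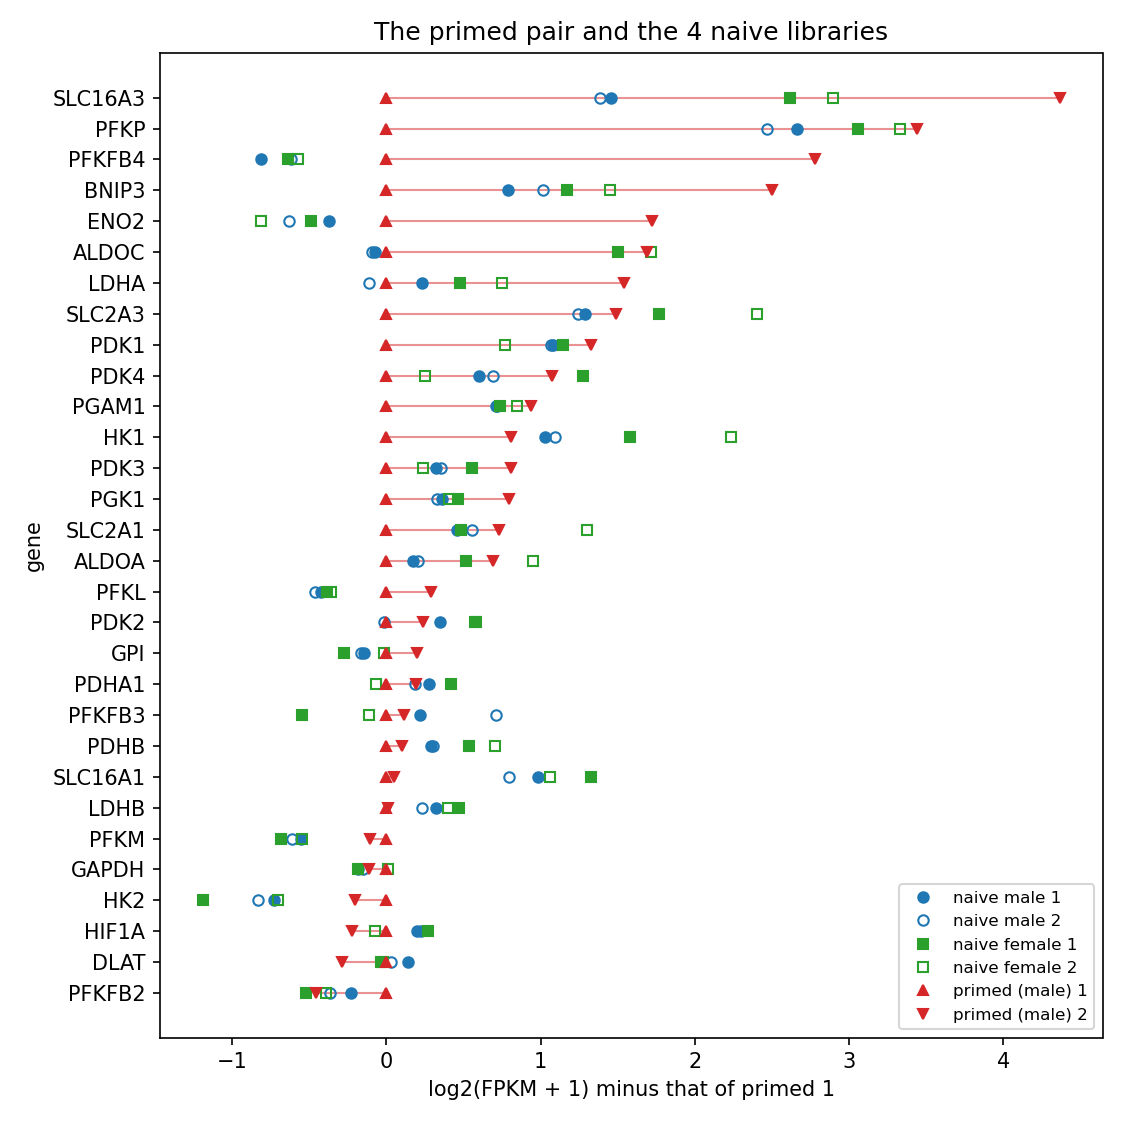
Level of each tested member and LDHB relative to primed 1, as a difference of log2(FPKM + 1), with a red line joining primed 1 to primed 2 and the 4 naive libraries as blue and green points. The line is longest for SLC16A3, PFKP, PFKFB4 and BNIP3, and the naive points lie on it for SLC16A3, PFKP and BNIP3 and left of it for PFKFB4 and ENO2.

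For members with unequal primed lines, the difference turned on which primed line was used. These members were set apart by their primed values, so the differences restate those values and are no further test. The list's median was -0.31 against primed 2 alone and 0.37 against primed 1 alone, where all tested rows had 0.02 and 0.04. Against primed 2 alone, 0 members were called higher in naive lines (against 0.921% of all rows) and 4 lower (against 0.373%): BNIP3 at -1.39 (adjusted p = 0.0458), ENO2 at -2.30 (0.0412), PFKFB4 at -3.44 (0.0275) and SLC16A3 at -2.27 (0.0351). Against primed 1 alone, 0 were lower (against 2.89% of all rows) and 7 higher (against 5.01%): BNIP3 at 1.11 (0.0321), SLC16A3 at 2.09 (0.0215), PFKP at 2.88 (0.0115), SLC2A3 at 1.67 (0.0329), HK1 at 1.49 (0.0449), PGAM1 at 0.75 (0.0256) and SLC16A1. BNIP3 and SLC16A3 took opposite signs, as follows from naive values that all lie between the primed ones. The 4 members called in the main comparison moved less between these fits, with SLC16A1 at 0.99 against primed 2 and 1.04 against primed 1, HK2 at -0.66 and -0.86, PFKM at -0.50 and -0.60 and PFKL at -0.70 and -0.41. These fits assume that the lone primed library varies like the other groups.

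HIF targets outside glycolysis also differed within the primed pair. Of 22 tested genes on a list of oxygen sensing and HIF target genes, 13 (59.1%) were at least 2-fold higher in primed 2. Over all tested rows 9.72% were. At least 2-fold lower was 1 gene (ARNT2), against 4.06% of all rows. P4HA1, a collagen prolyl hydroxylase, was at 14.7 FPKM in primed 1, 68.2 in primed 2 and 23 to 28 in naive lines. ERO1A, an oxidoreductase of the endoplasmic reticulum, was at 2.17, 21.9 and 5.4 to 11.3 FPKM, and VEGFA, the vascular growth factor, at 16.6, 37.6 and 16.6 to 22.3 FPKM in the same order. BNIP3L, the relative of BNIP3, was at 15.9, 67.8 and 24 to 41.9 FPKM, and the oxygen sensor EGLN1 at 5.22, 14.4 and 4.37 to 8.03 FPKM. These genes were chosen after their values were seen, and not all of the list went with them. CA9 was nearly equal in the primed pair (7 and 7.52 FPKM). HIF1AN (39.5 and 22.6 FPKM) and EGLN2 (31.5 and 24.9 FPKM) were lower in primed 2.

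**Figure D4:**
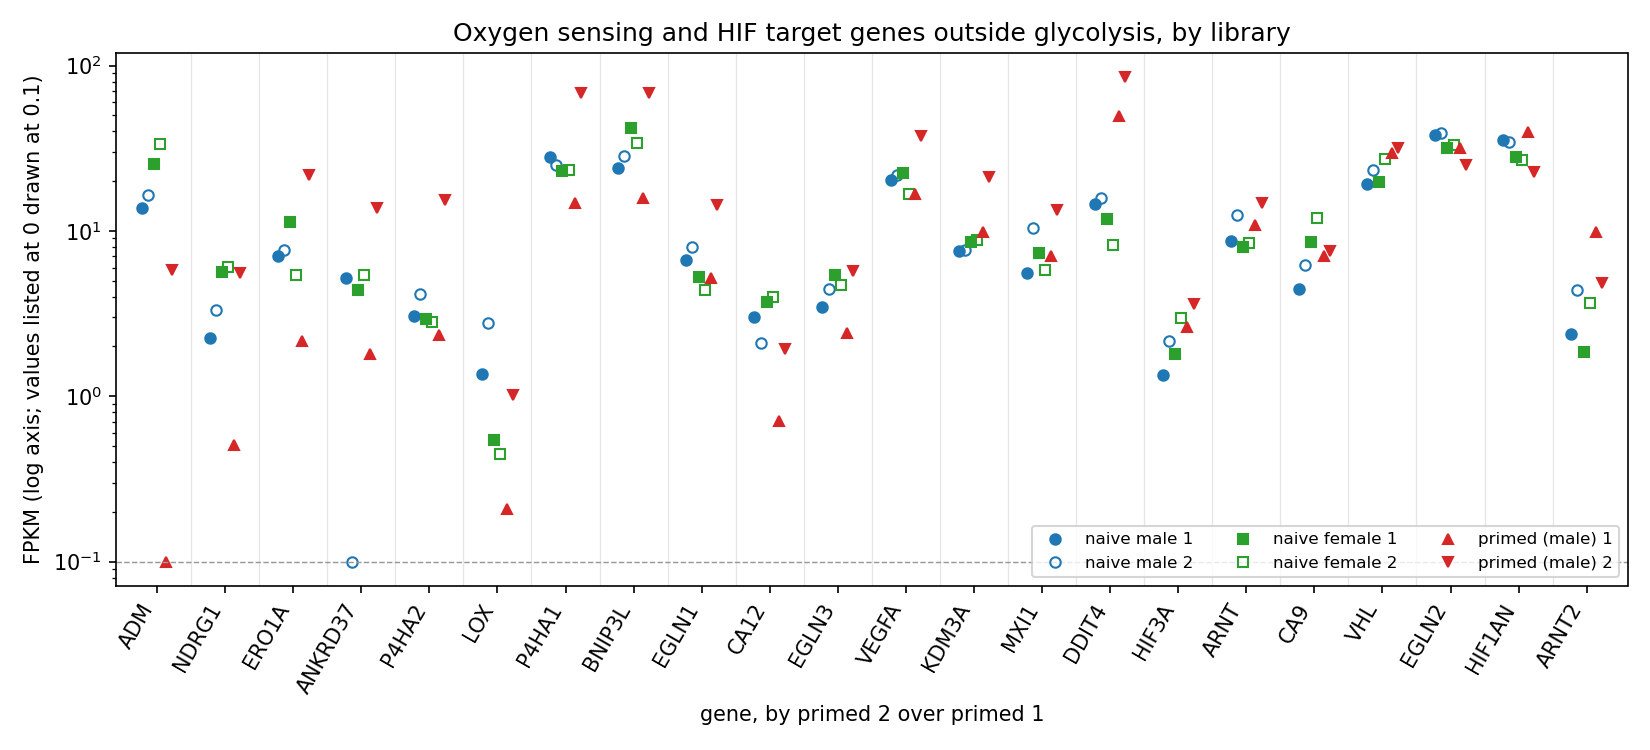
FPKM (log axis) of 22 tested oxygen sensing and HIF target genes outside glycolysis, ordered by the ratio of primed 2 to primed 1, 1 point per library, with values listed at 0 drawn at 0.1. Primed 2 (downward triangles) lies above primed 1 (upward triangles) in 19 genes.

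TXNIP, which is induced by glucose and restrains its uptake, was at 2.49 FPKM in primed 1, 74.8 in primed 2 and 13.5 to 18.4 in naive lines. Its relative ARRDC4 was at 0.208, 8.07 and 0.812 to 1.6 FPKM. Both were chosen after their values were seen. Of the 8 tested glucose-responsive and MYC genes, 4 were higher in primed 2. At least 2-fold higher were 3 of the 8 (TXNIP, ARRDC4 and MYC, 37.5%, against 9.72% of all rows). At least 2-fold lower was 1 (MYCN), and the median log2 difference was -0.09.

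Fibroblast markers moved with primed 2 as well. Of 14 tested fibroblast and feeder markers, 9 (64.3%, against 9.72% of all rows) were at least 2-fold higher in primed 2 than in primed 1. At least 2-fold lower were 0 of these markers (against 4.06%). The summed level of the 17 markers found, untested ones included, was 614 FPKM in primed 1, 1277 in primed 2 and 1203 to 1909 in naive libraries. Most of it was TAGLN. COL3A1 was at 0.414 FPKM in primed 1, 28.6 in primed 2 and 4.64 to 7 in naive lines, and LUM at 0.111, 19.9 and 0.0739 to 3.85. POSTN was listed at 0 in primed 1 and was at 13 FPKM in primed 2. COL3A1, LUM and POSTN were chosen after their values were seen. PDGFRB was lower in primed 2 (5.2 and 4.39 FPKM in the primed pair, 5.13 to 8.83 in naive libraries). PDGFRA stayed under 1 FPKM in every library. For 3 of the 14 tested markers (THY1, TWIST1 and TAGLN) all naive libraries lay above both primed ones, against 18.9% of all tested rows. In bulk RNA, more cells of a type and more RNA per cell cannot be told apart. Of the 11 tested pluripotency markers, 4 were higher in primed 2 than in primed 1, with a median log2 difference of -0.07. At least 2-fold higher were 2 of the 11, L1TD1 (10.7 and 21.7 FPKM) and TDGF1 (0 and 0.818 FPKM). At least 2-fold lower were 2, SALL4 (98.8 and 48 FPKM) and NANOG (0.917 and 0 FPKM). TDGF1 and NANOG were thus under 1 FPKM in both primed libraries. The part of fibroblast cells in the difference between the primed lines was not tested.

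Isozyme shares do not depend on how libraries are scaled. At the hexokinase step naive and primed shares did not overlap, as follows from the HK1 and HK2 levels given above. HK2 made up 48% and 45% of HK1 and HK2 together in the male naive lines, 30.8% and 28.4% in the female naive lines and 76.8% and 61.1% in primed lines. The male and female naive shares did not overlap either, and the sum stayed between 48.6 and 84 FPKM. Among phosphofructokinases, PFKP held 16.4% to 25.7% in naive lines, 1.63% in primed 1 and 20.2% in primed 2. LDHA held 19.9% to 28.7% of lactate dehydrogenase in naive lines and 24% in primed 1, but 47.7% in primed 2, where LDHB stayed at its level in primed 1. In the PFKFB family, PFKFB3 was the main form in naive lines (65.3% to 81.7%) and in primed 1 (62.5%), and PFKFB4 in primed 2 (72.7%). SLC16A3 made up 3.53% to 9.84% of the lactate carriers SLC16A1 and SLC16A3 in naive lines, 1.41% in primed 1 and 39.3% in primed 2. The shares are given as descriptions, with no test.

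**Figure D5:**
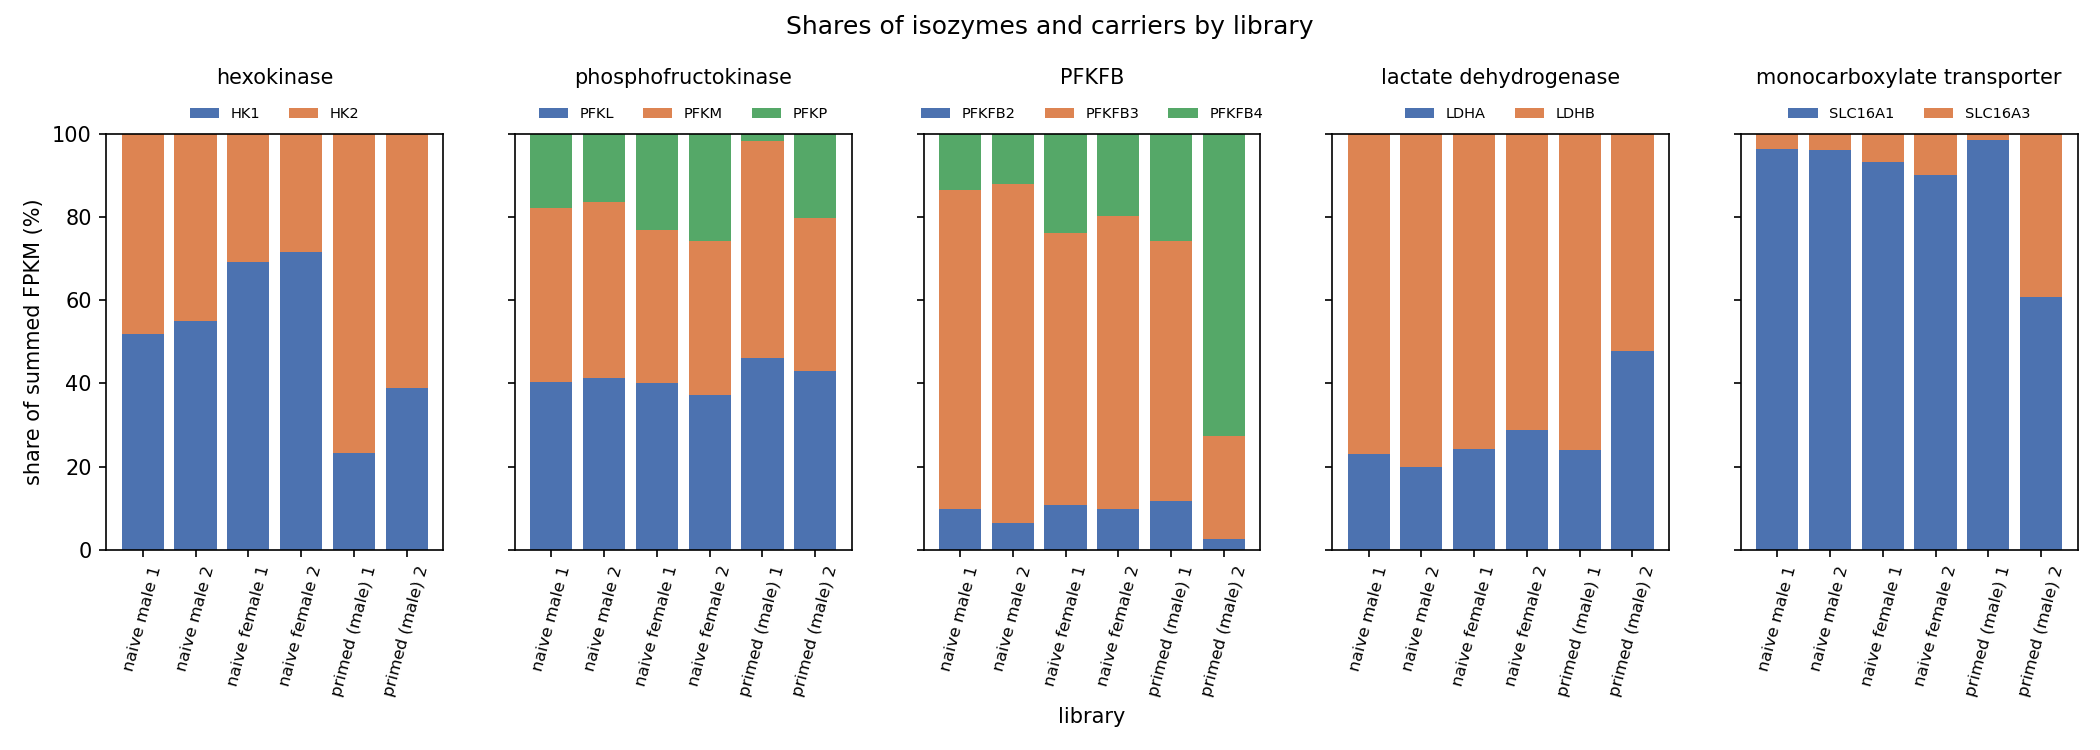
Share of the summed FPKM (%) held by each isozyme or carrier, 1 stacked bar per library, for hexokinase, phosphofructokinase, PFKFB, lactate dehydrogenase (LDHB by the table of gene names) and the lactate carriers. HK2 holds 61.1% or more in both primed libraries and 48% or less in naive ones, and primed 2 alone has large shares of PFKFB4, LDHA and SLC16A3.

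At the entry of glucose, the transporters SLC2A1 and SLC2A3 were not called. SLC2A3 was at 435 and 422 FPKM in the male naive lines, 607 and 946 in the female naive lines and 178 and 501 in the primed lines (log2 difference 0.93, SE 0.41, adjusted p = 0.183). Its row is wide, and the table of gene names gives it to SLC2A14, a close copy, so the 2 genes cannot be separated here. SLC2A1, the ubiquitous transporter, was at 193 and 206, 196 and 347, and 140 and 233 FPKM (0.33, SE 0.29, adjusted p = 0.479).

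Of the enzymes between hexokinase and pyruvate, GPI, ALDOA, GAPDH, PGK1 and PGAM1 were not called, and for several the primed lines lay on both sides of the naive ones. PGK1 was at 370 to 407 FPKM in naive lines and 295 and 512 in the primed lines (log2 difference -0.01, SE 0.21), PGAM1 at 460 to 506 and 281 and 539 (0.28, SE 0.25), and ALDOA at 408 to 701 and 362 and 584 (0.12, SE 0.22). ALDOA rested on 56 and 170 effective fragments in male naive libraries, few for its level. GPI was at 170 to 204 FPKM in naive lines and 206 and 237 in the primed lines (-0.25, SE 0.12, adjusted p = 0.215). GAPDH differed by -0.07 (SE 0.12).

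Among the genes of pyruvate entry, none was called. PDHA1, the alpha subunit, was at 44.2 to 62.4 FPKM in naive and 46.4 and 53.1 in the primed lines (log2 difference 0.11, SE 0.16), and DLAT, the acetyltransferase subunit, at 34.6 to 39.2 and 35.4 and 28.8 (0.17, SE 0.13). PDK1 (0.36, SE 0.37), PDK2 (0.25, SE 0.21), PDK3 (-0.04, SE 0.26) and PDK4 (0.17, SE 0.43) were not called. PDK1 was the most abundant of these kinases in the 4 naive libraries and in primed 2, and PDK3 in primed 1, with 43.3% of their sum. PFKFB2 (-0.15, SE 0.24) and PFKFB3 (0.01, SE 0.21) were not called, and for PFKFB3 male naive lines were above (0.41, SE 0.24) and female naive lines below the primed lines (-0.39, SE 0.23, fitted without male naive libraries).

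The comparison within males holds sex constant. SLC16A1 was higher in male naive than in primed lines by 0.86 (SE 0.14, adjusted p = 0.0278), the 1 called member of 29 (3.45%, against 3.97% of all rows higher and 5.39% in either direction), and 0 were lower, against 1.42%. Of the called rows 73.6% were higher in male naive lines, and 52.3% with upper-quartile scaling. The call of SLC16A1 was lost when any 1 library was left out, where fewer rows were called over all tested rows as well. PFKM (-0.53, SE 0.13, adjusted p = 0.0701) and PFKL (-0.59, SE 0.15, adjusted p = 0.0709) were called with upper-quartile scaling and with quantile normalization, and SLC16A1 was not called with quantile normalization (adjusted p = 0.056) or with the male naive pair averaged (0.168). HK2 was at -0.68 (SE 0.2, adjusted p = 0.103). This comparison shares its primed libraries with the main one.

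Between the naive groups, no member was called of 29 (limma, where 3.31% of all rows were called, 0.76% higher and 2.55% lower in female lines), and 4 had an unadjusted p under 0.05 (13.8%, against 21.7% of all rows). With the male naive pair averaged the count was also 0. ALDOC, the brain-type aldolase, was at 6.21 and 6.14 FPKM in the male naive lines, on 23 and 19 effective fragments, and 20.5 and 24 in female naive. It was at 6.6 in primed 1 and 23.5 in primed 2 (female minus male 1.69, SE 0.51, adjusted p = 0.132 by limma). PFKFB3 went the other way, at 17.7 and 25.3 FPKM in the male naive lines, on 14 and 7 effective fragments, and 10 and 13.9 in female naive lines (-0.79, SE 0.24, adjusted p = 0.134). ALDOC (adjusted p = 0.0194) and SLC16A3 (1.34, adjusted p = 0.0467) were called when the naive groups alone were fitted. Both female lines lay above both male lines for 14 members (48.3%, against 19.4% of all rows) and below for 3 (10.3%, against 37.6%), and the median female minus male difference was 0.09 in the list and -0.10 over all rows. With upper-quartile, median-of-ratios and quantile scaling, which bring the median of all rows to between 0.01 and 0.03, the list's median was 0.21 to 0.24 and the counts were 18 above and 1 below. After rescaling without rows under 300 bp the counts were 16 and 1, with medians of 0.14 in the list and -0.06 over all rows. All rows were not counted in this way under any rescaling, so 19.4% and 37.6% are no background for these counts. Depth differs between the sexes here, and its part in these values was not tested.

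Of the members, 3 lie on chromosome X. PGK1 differed by 0.09 (SE 0.25) between female and male naive lines, PDHA1 by -0.06 (SE 0.19) and PDK3 by 0.06 (SE 0.31). The median over 530 tested rows of chromosome X was -0.11, and over 12718 autosomal rows -0.10.

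Genes of neighbouring pathways were taken from lists beside the members. Over all tested rows, 6.72% were called higher and 4.59% lower in naive lines, the background for the counts of these lists. Of 10 genes of glycogen metabolism, 3 rose and 0 fell. UGP2, which makes UDP-glucose, was at 51.7 and 45.4 FPKM in the male naive lines, 143 and 120 in the female naive lines and 20.3 and 26.7 in the primed lines. It rose by 1.73 (SE 0.16, adjusted p = 0.00787). The glycogen primer GYG1 rose by 0.81 (SE 0.13, adjusted p = 0.0188) and the branching enzyme GBE1 by 1.22 (SE 0.22, adjusted p = 0.026). The list's median was 0.21. With the male naive pair averaged UGP2 alone was called (adjusted p = 0.0468), with GYG1 at 0.0768 and GBE1 at 0.0834, and the same held without primed 1 and without each naive library. UGP2 and GYG1 also rose within males (1.02, adjusted p = 0.0331 and 1.05, adjusted p = 0.0191), and UGP2 was higher in female than in male naive lines (1.42, adjusted p = 0.016), calls that were lost with the pair averaged (adjusted p from 0.128 to 0.185). The synthase GYS1 (-0.73, adjusted p = 0.0625) and the phosphorylase PYGB (0.17) were not called.

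Of 10 tested genes for other pyruvate carriers and pyruvate dehydrogenase parts, 1 rose and 0 fell. It was PDP1, the phosphatase that reactivates pyruvate dehydrogenase, at 18.7 and 17.3 FPKM in the male naive lines, 24.4 and 33 in the female naive lines and 9.42 and 9.99 in the primed lines (1.14, SE 0.17, adjusted p = 0.0155, and 0.0636 with the pair averaged). The call was also lost without primed 1, either male naive library or female naive 2. The shared subunit DLD was at 40.1 to 55.6 FPKM in naive lines and 29.2 and 33 in the primed lines (0.63, SE 0.16, adjusted p = 0.0587). BSG, the chaperone that brings SLC16A1 to the membrane, was at 126 to 139 and 143 and 163 FPKM and was not called (-0.21, adjusted p = 0.242).

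Of 12 tested isozymes and glucose transporters outside the list, 0 rose and 1 fell. This was a row on an unplaced contig that only the table of gene names calls ENO3. Since ENO1 was matched to no row, whether it holds reads of another enolase is not known. It was at 97.7 to 191 FPKM in naive and 273 and 279 in the primed lines (-0.97, SE 0.12, adjusted p = 0.0102), and was also lower in female than in male naive lines (-0.77, adjusted p = 0.0393). Both calls were lost with the pair averaged. The first was also lost without primed 1 or male naive 2, and the second when any 1 library was left out. The transporter SLC2A4 was at 2.47 and 1.07 FPKM in primed lines and 0.679 or less in naive ones (-1.06, adjusted p = 0.105). In the pentose phosphate pathway 0 of 10 genes were called in any of the 3 comparisons. The median naive minus primed difference of that list was -0.01, and TKT, the transketolase, came nearest to the threshold (-0.27, SE 0.09, adjusted p = 0.107).

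Of the 22 oxygen sensing and HIF target genes, 1 rose and 1 fell in naive lines. DDIT4, a stress-induced inhibitor of mTORC1, was at 8.22 to 15.8 FPKM in naive lines and 49.6 and 85 in primed lines and fell by 2.32 (SE 0.25, adjusted p = 0.00968). ADM, adrenomedullin, was at 13.7 to 33.6 FPKM in naive lines, listed at 0 in primed 1 and at 5.77 in primed 2 (3.08, SE 0.7, adjusted p = 0.0433). DDIT4 was called with the pair averaged (adjusted p = 0.0474) and ADM was not (0.114), nor was ADM without any 1 library other than primed 2. CA12 (0.89, adjusted p = 0.0974) and ARNT2 (-1.02, adjusted p = 0.124) were not called. Among 8 tested glucose-responsive and MYC genes, MYC alone was called against primed lines, at 17.4 to 59.4 FPKM in naive lines and 1.22 and 3.7 in the primed lines (3.22, SE 0.34, adjusted p = 0.00966, and 0.0474 with the pair averaged). MYCL was lower in female than in male naive lines (-1.67, adjusted p = 0.0119), and not with the pair averaged (0.12).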

How the data were processed

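The deposited gene tables of the authors hold FPKM, its lower and upper bounds and a status flag per row, and per the file headers they have the columns that Cufflinks writes. TopHat 1.3.0 is named in the submitters' processing notes, and the sources used here give no quantifier version, genome build, annotation or scaling between libraries. Locus starts in the files count from 0 and are given here from 1. No sequences of these genes are printed.

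A row was tested if its status was sound and 2 or more libraries reached an FPKM of 1, which left 13685 rows. A linear model with a mean per group and a mean-variance trend was fitted to log2(FPKM + 1) of all 6 libraries (limma 3.58.1, R 4.3.3). Tests were two-sided, and a call is an adjusted p (Benjamini-Hochberg, all tested rows) under 0.05. Simulated data with known changes were used to test this fit. With 2 samples per group, p-values measure the spread between these libraries only. Differences on this scale understate the change of low genes.

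Effective fragments are the squared ratio of FPKM to its SD, with the bounds taken to lie 2 SD away. The error in these bounds is called counting error here and leaves out the spread between samples. Effective fragments do not follow depth alone: in male naive 1 ALDOA had 56 at 408 FPKM, where PGAM1 had 780 at 462 FPKM. All 33 members are accounted for. Outside the list, called genes and up to 2 uncalled genes with the smallest p per list are named, and a few others chosen after their values were seen. Members and lists were chosen with earlier results of these data known. Alternatives covered pseudocounts (0.1 and 5), filters, scaling, rows under 300 bp, a replicate block, the trend, weights, sex and each library left out. Averaging the male naive pair, all alternatives for the other lists, and the scaling of library orders, were added after seeing the data.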

Additional observations from a re-analysis of the deposited data

Results flagged for a closer look

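Over the 4 naive libraries, SLC2A1 was highest in female naive 2, at 347 FPKM, with the other 3 from 193 to 206 FPKM. The gap to the next library was 0.917 of the range, above Dixon's 95% critical value of 0.829 for 4 samples. GAPDH was also highest in female naive 2, at 2641 FPKM with the other 3 from 2308 to 2364, a gap of 0.831 of the range. Of 30 genes checked in this way 2 passed, and chance alone passes about 1 in 20. Female naive 2 also had the highest SLC2A3 (946 FPKM), HK1 (60.1 FPKM) and ALDOA (701 FPKM) of the 6 libraries. The naive group joins male and female lines, so a difference between the sexes can enter this measure.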

How the results depend on the processing

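Pseudocounts, the stricter filter, every scaling and the removal of short rows kept the same 4 calls between naive and primed lines, and precision weights gave 5. Without a filter there were 2 (PFKM and SLC16A1), and 1 (SLC16A1) without the trend, with sex ignored, without both male naive libraries and with that pair averaged. Leaving out 1 library gave 0 to 7 calls: 0 without male naive 1, 1 without any other naive library, 4 without primed 1 and 7 without primed 2. SLC16A3 and BNIP3 ran from -2.27 and -1.39 without primed 1 to 2.09 and 1.11 without primed 2. For male naive against primed, 3 were called with upper-quartile scaling, 2 with quantile normalization, 0 without the trend, with these groups alone or with the pair averaged, and 0 to 6 with a library left out (6 without primed 1, 2 without primed 2). For female against male naive lines, 2 were called with these groups alone, where 499 of all 13685 rows were called. Calls here also varied with the library left out. Replicate numbers did not pair the libraries: same-numbered deviations correlated at -0.06, -0.05 and -0.263 over genes. A replicate block gave 2 calls between naive and primed lines (HK1 and SLC16A1), 0 within males and 0 between the sexes. Where calls moved, the cause was not tested. The count of 10 members at least 2-fold higher in primed 2 was 10 under each scaling. Few effective fragments limit the male naive values of PDK2, PDK4, PFKFB2, PFKFB3, PFKFB4 and SLC16A3. The same holds for ALDOC (23 and 19 effective fragments) and PDK3 (22 and 19).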
